A study of Mus musculus with 62 samples.

Results

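The 9 genes described here, Slc17a7, Tbr1, Neurod6, Neurod2, Nrgn, Ccn2, Lamp5, Rprm and Fezf2, are markers of cortical excitatory neurons that were read in RNA from the mouse striatum. They were taken by name, with earlier results of these data known, and each matched 1 row among the 48795 genes of the count table. All 9 passed the filter on low counts in every fit. The study lowered mutant huntingtin (mHTT) with zinc finger protein (ZFP) repressors carried by adeno-associated virus (AAV), and 62 striatal libraries in 16 groups were read for these genes. The question asked of them was how far their level in striatal RNA moved with genotype, with the repressor and with the amount of cortical RNA in a library.

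Excitatory neurons of the cerebral cortex release glutamate, whereas the projection neurons of the striatum release GABA and receive cortical axons. Striatal cells therefore make little RNA of most cortical excitatory genes, and a striatal dissection can hold tissue of the overlying cortex or claustrum. In Huntington's disease models the striatal projection neurons lose expression of many of their own genes. Slc17a7 encodes VGLUT1, the vesicular glutamate transporter of cortical neurons. Tbr1 encodes a T-box factor of deep-layer and early cortical neurons, and Fezf2 a zinc finger factor that specifies deep-layer neurons with subcortical axons. Neurod6 and Neurod2 encode basic helix-loop-helix factors of differentiating and mature excitatory neurons. Nrgn encodes neurogranin, a postsynaptic calmodulin-binding protein that striatal projection neurons also make. Ccn2 encodes a secreted matricellular protein that marks layer 6b in the cortex and is also made by vascular and other non-neuronal cells. Lamp5 encodes a lysosome-associated membrane protein of upper and layer 5 excitatory neurons that a class of GABAergic interneurons also makes. Rprm encodes reprimo, a cell cycle inhibitor used as a marker of layer 6.

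In the first mouse series, R6/2 mice, which carry a transgenic fragment of mutant human HTT, and NCAR mice received PHP.eB AAVs at 4 weeks of age, and the striatum was collected at 11 weeks. NCAR is not spelled out in the sources used here, and they are the mice that R6/2 is set against here. The groups were R6/2 N-ZFP, R6/2 N-Delta, NCAR N-ZFP, NCAR N-Delta, R6/2 A-ZFP, R6/2 A-Delta, NCAR A-ZFP and NCAR A-Delta, all bulk tissue, with 3 libraries in R6/2 A-ZFP and 4 in each other group. In the second series, zQ175 mice, a knock-in model, and WT mice received N-ZFP or N-Delta AAVs into the striatum at 6 months, and tissue was collected at 12 months. Neuronal and bulk libraries were made from zQ175 N-ZFP, zQ175 N-Delta, WT N-ZFP and WT N-Delta striatum, with 3 libraries in WT N-ZFP bulk and 4 in each other group. N-ZFP and A-ZFP are the functional mHTT repressors, and N-Delta and A-Delta are their control viruses, so no group was without a virus. The treatment text of the labels calls all viruses of the R6/2 series astrocytic, while the cell type label of the N viruses says neuron. The deposited names read N_IP for neuronal and Input for bulk striatum in the zQ175 series, but neither the steps that separated neuronal RNA nor the promoters of the viruses are given in the sources used here. The neuronal and bulk libraries of a genotype and virus share replicate numbers, and the labels do not say whether libraries with the same number came from 1 mouse. The labels do not say that the libraries of a group came from separate animals, so the spread behind each p-value may be partly technical.

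Library totals ran over 49237583 to 101295189 counts in R6/2 series bulk, 8664055 to 11211827 in zQ175 series bulk and 4610476 to 12200813 in zQ175 series neuronal libraries. A count of 3 was worth 0.0296 to 0.0609, 0.268 to 0.346 and 0.246 to 0.651 CPM, counts scaled to a fixed library size, in these sets. The lowest count of any marker was 4, for Fezf2 in 1 zQ175 N-ZFP neuronal library. The 12 genes of a striatal projection neuron list, among them Penk, Drd1 and Ppp1r1b, summed to 1725 to 10590.0 CPM in bulk libraries, so the tissue label matched its defining genes. Htt was read as the mouse gene, and in zQ175 its gene-level counts do not separate mutant from normal transcripts. The human HTT transgene of R6/2 had no row of its own among the genes counted. Htt passed the test for a repressor over its control virus in none of 8 comparisons. The lowest log2 fold change was -0.28 ± 0.15 (SE, adjusted p = 0.194) for N-ZFP in R6/2. The highest was 0.40 ± 0.15 (adjusted p = 0.0512) for N-ZFP in NCAR bulk libraries. The difference between these passed at -0.68 ± 0.21 (adjusted p = 0.0161). Among all genes 7028 passed in that difference, and 242 in the alternative fit that called fewest, in which Htt was not read.

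All 9 genes are protein coding in GENCODE M21 on GRCm38. On the plus strand lie Slc17a7 at chr7:45163949-45176142, Tbr1 at chr2:61802930-61814114, Ccn2 at chr10:24595442-24598683 and Lamp5 at chr2:136052239-136069917. On the minus strand lie Neurod6 at chr6:55677822-55681263, Neurod2 at chr11:98325415-98329648, Nrgn at chr9:37544492-37552904, Rprm at chr2:54084093-54085552 and Fezf2 at chr14:12342094-12348189. RefSeq promoter windows of GRCm38.p6, from 250 bases before to 50 after the start site, were found for 8 of the 9 genes, with 2 windows for Lamp5. The windows of Slc17a7, Tbr1, Neurod6 and Neurod2 are printed below 5′ to 3′ on the gene's strand, because Tbr1, Neurod6 and Neurod2 followed Slc17a7 from library to library in every set. Capitals mark the E-box CANNTG, the motif read by basic helix-loop-helix factors such as the Neurod proteins. The motif reads the same on both strands.
Slc17a7, chr7:45163671-45163970, plus strand: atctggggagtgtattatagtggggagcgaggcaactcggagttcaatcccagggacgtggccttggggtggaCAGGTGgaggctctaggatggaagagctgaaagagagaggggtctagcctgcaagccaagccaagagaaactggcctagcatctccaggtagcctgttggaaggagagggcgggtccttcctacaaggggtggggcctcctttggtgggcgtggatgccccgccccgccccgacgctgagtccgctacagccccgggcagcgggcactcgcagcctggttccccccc
Tbr1, chr2:61804203-61804502, plus strand: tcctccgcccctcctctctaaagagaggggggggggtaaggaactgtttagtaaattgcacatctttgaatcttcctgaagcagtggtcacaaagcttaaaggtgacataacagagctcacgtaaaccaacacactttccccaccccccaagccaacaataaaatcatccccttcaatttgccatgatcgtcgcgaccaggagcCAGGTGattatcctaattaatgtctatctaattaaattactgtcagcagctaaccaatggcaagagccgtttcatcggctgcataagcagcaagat
Neurod6, chr6:55681214-55681513, minus strand: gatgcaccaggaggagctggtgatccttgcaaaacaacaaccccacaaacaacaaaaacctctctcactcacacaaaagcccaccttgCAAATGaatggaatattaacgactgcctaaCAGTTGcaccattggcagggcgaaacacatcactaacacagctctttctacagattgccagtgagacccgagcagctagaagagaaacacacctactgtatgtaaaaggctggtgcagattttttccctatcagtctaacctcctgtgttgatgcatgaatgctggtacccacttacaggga
Neurod2, chr11:98329596-98329895, minus strand: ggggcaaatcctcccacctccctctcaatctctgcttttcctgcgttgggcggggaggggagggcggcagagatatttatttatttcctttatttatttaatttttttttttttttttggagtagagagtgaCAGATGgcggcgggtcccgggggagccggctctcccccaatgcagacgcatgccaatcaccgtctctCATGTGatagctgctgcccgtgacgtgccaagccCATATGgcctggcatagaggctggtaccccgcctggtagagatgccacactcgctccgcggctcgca
These windows held 1 E-box in Slc17a7, 1 in Tbr1, 2 in Neurod6 and 3 in Neurod2. Nrgn held 1, each Lamp5 window held 2, and Rprm and Fezf2 held none. Of 32851 mouse promoter windows of this length, 72.3% held the motif, so its presence did not set these genes apart.

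Per kilobase of exon, Nrgn had the highest level of the 9 genes in R6/2 series bulk libraries, at 159 CPM per kb averaged over the groups. Slc17a7 followed at 56.4 and Lamp5 at 21.9 CPM per kb. Rprm, Neurod6, Ccn2, Neurod2 and Tbr1 lay between 6.80 and 15.3 CPM per kb, and Fezf2 was lowest at 2.55 CPM per kb. In zQ175 series neuronal libraries the levels per length were 207 for Nrgn, 30.4 for Lamp5 and 18.1 CPM per kb for Slc17a7. In zQ175 series bulk libraries they were 159.8, 19.5 and 24.4 CPM per kb for the same genes. The remaining 6 genes lay below 10 CPM per kb in both sets of the zQ175 series. The R6/2 and zQ175 series were scaled separately, so levels across them are set side by side and not tested.

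Across the 16 groups, Slc17a7 had its highest mean in NCAR A-Delta bulk, 443 ± 112 CPM (SD, n = 4), and its lowest in zQ175 N-ZFP neuronal, 51.6 ± 18.5 CPM (SD, n = 4), a ratio of 8.57. When the 16 group means were put in order, none of the 15 neighbouring pairs was free of overlap between libraries for Slc17a7, Tbr1, Neurod6, Neurod2, Ccn2, Rprm or Fezf2. Overlap is not a test of difference, and the order mixes sets that were scaled separately, so the order is described only. Tbr1 ranged from 7.50 CPM in zQ175 N-ZFP neuronal to 53.9 in NCAR A-Delta bulk. Neurod6, Neurod2 and Fezf2 were lowest in WT N-ZFP neuronal, at 3.35, 4.68 and 0.899 CPM. Their highest means were 36.3 CPM in NCAR N-Delta bulk for Neurod6, and 31.2 and 10.8 CPM in NCAR A-ZFP bulk for Neurod2 and Fezf2. Rprm spanned 6.04 CPM in WT N-ZFP neuronal to 27.3 CPM in R6/2 A-ZFP bulk. Nrgn and Lamp5 had the narrowest spans, with ratios of highest to lowest mean of 3.06 and 2.62, and both were highest in WT N-Delta neuronal libraries, at 441 and 99.0 CPM. Nrgn had 3 neighbouring pairs without overlap and Lamp5 had 1. Within groups of the R6/2 series, the median coefficient of variation was 23.5% for Slc17a7, 28.1% for Neurod6, 14.3% for Lamp5 and 13.4% for Nrgn. In neuronal libraries it reached 44.1% for Neurod6 and 70.2% for Ccn2, against 10.8% for Nrgn and 13.6% for Lamp5.

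**Figure D1:**
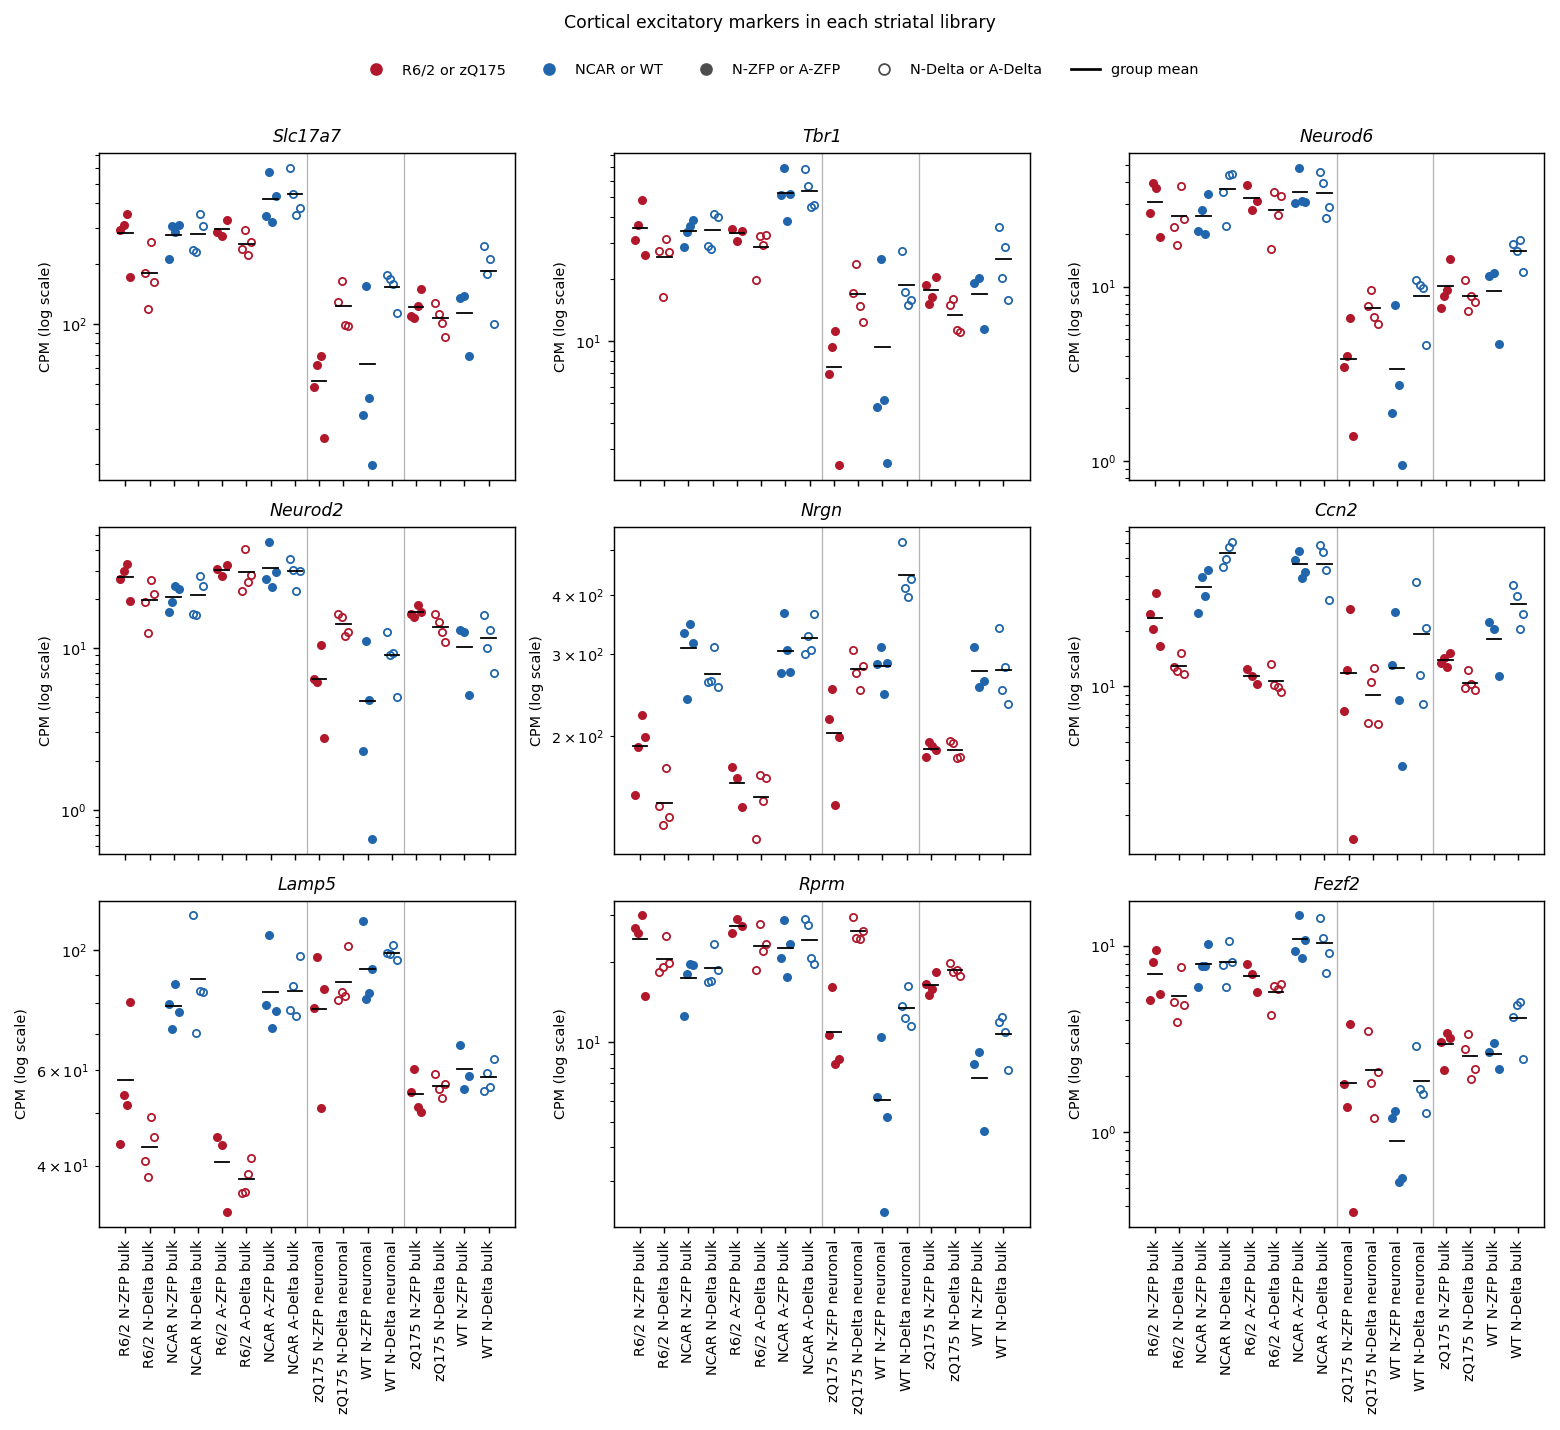
CPM of the 9 markers in each of the 62 libraries on log axes, by group along the horizontal axis; points are libraries, filled for the repressor and open for its control virus, and lines are group means. Vertical lines part the R6/2 series bulk, zQ175 series neuronal and zQ175 series bulk libraries, and in the panels of Ccn2, Nrgn and Lamp5 the R6/2 A-Delta and R6/2 N-Delta points lie below the NCAR points of the same virus.

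The genotype comparison asked how the markers differed in R6/2 striatum with the control virus. Of the 9 markers, 6 fell in R6/2 A-Delta relative to NCAR A-Delta libraries and none rose, where 28.9% of the 21752 genes tested were called in either direction and 15.3% were called lower. The 9 log2 fold changes had a median of -0.88, beside 0.02 over all genes. Ccn2 fell most. Nrgn, Lamp5, Tbr1, Fezf2 and Slc17a7 fell by less, and Neurod6, Neurod2 and Rprm did not pass the test. A difference in bulk tissue can come from fewer cells of a type or from less RNA per cell, and these cannot be told apart here.

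Ccn2 had 13.2, 10.2, 9.98 and 9.34 CPM in R6/2 A-Delta libraries, against 58.9, 53.8, 43.1 and 29.5 CPM in NCAR A-Delta libraries. Every R6/2 library lay below every NCAR library. The log2 fold change was -2.11 ± 0.20 (SE, adjusted p = 9e-09), which is 4.33-fold lower. Nrgn had 121, 165, 146 and 163 CPM in R6/2 A-Delta, against 299.8, 328, 306 and 364 CPM in NCAR A-Delta libraries, a log2 fold change of -1.13 ± 0.13 (adjusted p = 2.07e-07). Lamp5 had 35.6, 35.7, 38.6 and 41.3 CPM in R6/2 A-Delta, against 77.4, 85.8, 75.6 and 97.4 CPM in NCAR A-Delta libraries, a log2 fold change of -1.15 ± 0.16 (adjusted p = 3.15e-06). For both genes every R6/2 library lay below every NCAR library.

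Tbr1, the deep-layer factor, had 19.8, 32.4, 29.2 and 32.6 CPM in R6/2 A-Delta, against 68.2, 56.8, 44.6 and 45.9 CPM in NCAR A-Delta libraries. Its log2 fold change was -0.92 ± 0.21 (adjusted p = 0.00112). Slc17a7 had 235, 295, 220.4 and 256 CPM in R6/2 A-Delta, against 599.7, 444, 349 and 379 CPM in NCAR A-Delta libraries, a log2 fold change of -0.82 ± 0.22 (adjusted p = 0.00665). Fezf2 had a log2 fold change of -0.88 ± 0.24 (adjusted p = 0.00554). The groups did not overlap for any of these 3 genes. Neurod2 had 22.3, 40.9, 25.5 and 28.1 CPM in R6/2 A-Delta, against 35.5, 30.4, 22.5 and 30.0 CPM in NCAR A-Delta libraries. These groups overlapped, and the log2 fold change was -0.02 ± 0.23 (adjusted p = 0.958). Rprm at -0.08 ± 0.19 (adjusted p = 0.805) and Neurod6 at -0.32 ± 0.27 (adjusted p = 0.407) also overlapped between genotypes. All 6 calls held when any 1 library was left out.

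With the N-Delta virus, 5 markers fell in R6/2 relative to NCAR libraries and none rose, in a comparison that called 55.5% of genes in either direction, 27.1% higher and 28.4% lower. The count of markers called in either direction was near the background. Ccn2 had 12.7, 12.2, 15.2 and 11.7 CPM in R6/2 N-Delta, against 44.5, 49.1, 57.0 and 61.3 CPM in NCAR N-Delta libraries. Its log2 fold change was -2.03 ± 0.20 (adjusted p = 1.22e-08). Nrgn changed by -0.92 ± 0.13 (adjusted p = 2.55e-06) and Lamp5 by -1.03 ± 0.16 (adjusted p = 7.47e-06), and neither gene's groups overlapped. Slc17a7 had 179, 119, 255 and 163 CPM in R6/2 N-Delta, against 234, 229, 355 and 309 CPM in NCAR N-Delta libraries, which overlapped, with a log2 fold change of -0.65 ± 0.22 (adjusted p = 0.0152). Fezf2 changed by -0.61 ± 0.24 (adjusted p = 0.0322). The values that missed the threshold were -0.44 ± 0.21 (adjusted p = 0.0709) for Tbr1, -0.52 ± 0.27 (adjusted p = 0.109) for Neurod6, -0.09 ± 0.23 (adjusted p = 0.765) for Neurod2 and 0.12 ± 0.19 (adjusted p = 0.605) for Rprm. Slc17a7 lost its call without NCAR N-Delta replicate 3, at -0.52 (adjusted p = 0.0642), or R6/2 N-Delta replicate 2, at -0.50 (adjusted p = 0.0706). Fezf2 lost its call when NCAR N-Delta replicate 3 or 4 or R6/2 N-Delta replicate 1, 2 or 4 was left out, and Tbr1 and Neurod6 gained one without NCAR N-Delta replicate 2 or R6/2 N-Delta replicate 3. No marker passed the test of the difference between the N-Delta and A-Delta genotype effects, where 22.9% of genes did.

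Other properties of these libraries moved with genotype. A length index, the correlation across genes of a library's log2 deviations with log10 exon length, ran over 0.17 to 0.29 in R6/2 N-Delta and -0.42 to -0.23 in NCAR N-Delta libraries, without overlap. With this index as a covariate Slc17a7 went to -0.33 (adjusted p = 0.507) and Fezf2 to -0.41 (adjusted p = 0.43), while Nrgn, Ccn2 and Lamp5 still passed. The 6 hypothalamic genes, among them Trh and Pmch, summed to 1.03 to 2.17 CPM in R6/2 N-Delta and 5.47 to 63.7 CPM in NCAR N-Delta libraries, with none at 0 in every library of either group. The part of both in the marker differences was not tested beyond the length fit. The 8 vascular and fibroblast genes, a possible other source of Ccn2 RNA, summed to 139 to 157 CPM in R6/2 A-Delta and 87.1 to 130.0 CPM in NCAR A-Delta libraries, and 1 of them, Cldn5, rose by a log2 fold change of 0.64 ± 0.20 (adjusted p = 0.0164) while Ccn2 fell. In the N-Delta libraries these genes summed to 144 to 174 CPM in R6/2 and 61.7 to 97.6 CPM in NCAR, and 3 of 8 rose and 1 fell. There 27.1% of all genes were called higher and 28.4% lower, 55.5% in either direction, so the count of this list was near the background. Of the 9 interneuron genes, a class that includes Lamp5-making cells, 6 fell in R6/2 A-Delta, with Pthlh at -2.02 ± 0.17 (adjusted p = 1.37e-09) and Npy at -0.95 ± 0.12 (adjusted p = 5.82e-07), and 5 fell and 1 rose in R6/2 N-Delta libraries. In R6/2 A-Delta 13.7% of all genes were called higher and 15.3% lower.

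In zQ175 N-Delta bulk libraries relative to WT N-Delta bulk libraries, 5 markers fell and 1 rose, where 16% of the 17114 genes tested were called, 6.44% higher and 9.57% lower. Ccn2 had 9.75, 12.3, 10.3 and 9.56 CPM in zQ175, against 35.7, 31.1, 20.5 and 24.7 CPM in WT libraries. No library overlapped, and the log2 fold change was -1.42 ± 0.18 (adjusted p = 1.33e-05). Nrgn had 196, 194, 179.6 and 181 CPM in zQ175, against 341, 252, 281 and 234 CPM in WT libraries, a log2 fold change of -0.56 ± 0.09 (adjusted p = 0.000176) without overlap. Neurod6 had 10.9, 7.26, 8.82 and 8.14 CPM in zQ175, against 17.5, 16, 18.4 and 12.1 CPM in WT libraries, also without overlap, at -0.86 ± 0.22 (adjusted p = 0.0111).

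Tbr1 changed by -0.91 ± 0.21 (adjusted p = 0.00523) and Slc17a7 by -0.78 ± 0.22 (adjusted p = 0.0179) in the same comparison. Slc17a7 had 127, 113, 101 and 86.1 CPM in zQ175, against 243, 178, 211 and 100.0 CPM in WT libraries, and the groups overlapped. Its call was lost without WT replicate 1, at -0.61 (adjusted p = 0.0773), without WT replicate 3, at -0.70 (adjusted p = 0.0529), and without zQ175 replicate 4, at -0.69 (adjusted p = 0.064). Rprm, the layer 6 marker, went the other way, with 19.9, 18.4, 18.7 and 17.7 CPM in zQ175, against 11.9, 12.5, 10.9 and 7.80 CPM in WT libraries. Every zQ175 library was above every WT library, and the log2 fold change was 0.79 ± 0.15 (adjusted p = 0.000896). Fezf2 at -0.67 ± 0.24 (adjusted p = 0.0583) missed the threshold, and it passed without WT replicate 4 or zQ175 replicate 2. Neurod2 at 0.24 ± 0.23 (adjusted p = 0.519) and Lamp5 at -0.06 ± 0.07 (adjusted p = 0.659) did not pass. Lamp5 had 59.1, 55.4, 53.3 and 56.6 CPM in zQ175, against 55.0, 59.4, 55.8 and 62.9 CPM in WT libraries, which overlapped.

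In neuronal libraries of the same genotypes, 1 marker fell and 1 rose, where 9.36% of the 15815 genes tested were called, 3.33% higher and 6.03% lower. Nrgn had 306, 273, 251 and 283 CPM in zQ175 N-Delta neuronal, against 521, 414, 397 and 433 CPM in WT N-Delta neuronal libraries. The groups did not overlap, and the log2 fold change was -0.67 ± 0.14 (adjusted p = 0.00465). Rprm had 29.7, 24.6, 24.5 and 26.2 CPM in zQ175, against 13.7, 12.3, 16.2 and 11.5 CPM in WT neuronal libraries. It changed by 0.96 ± 0.28 (adjusted p = 0.0394) without overlap, and the adjusted p rose above the threshold whichever of the 8 libraries was left out, at 0.89 to 1.06 with adjusted p of 0.0564 to 0.11. Neurod2 at 0.63 ± 0.50 (adjusted p = 0.551) did not pass, and passed at an adjusted p of 0.0477 when the fit held these 2 groups alone. The estimates of Slc17a7, Tbr1 and Neurod6 were -0.33 ± 0.45, -0.15 ± 0.52 and -0.24 ± 0.47, with standard errors of 0.22, 0.21 and 0.22 in bulk libraries. Ccn2 was at -1.09 ± 0.65 (adjusted p = 0.386). No gene of any kind passed the test of the zQ175 effect in neuronal minus bulk libraries in edgeR. An unadjusted p under 0.05 was found for 562 genes, and DESeq2 called 6.

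**Figure D2:**
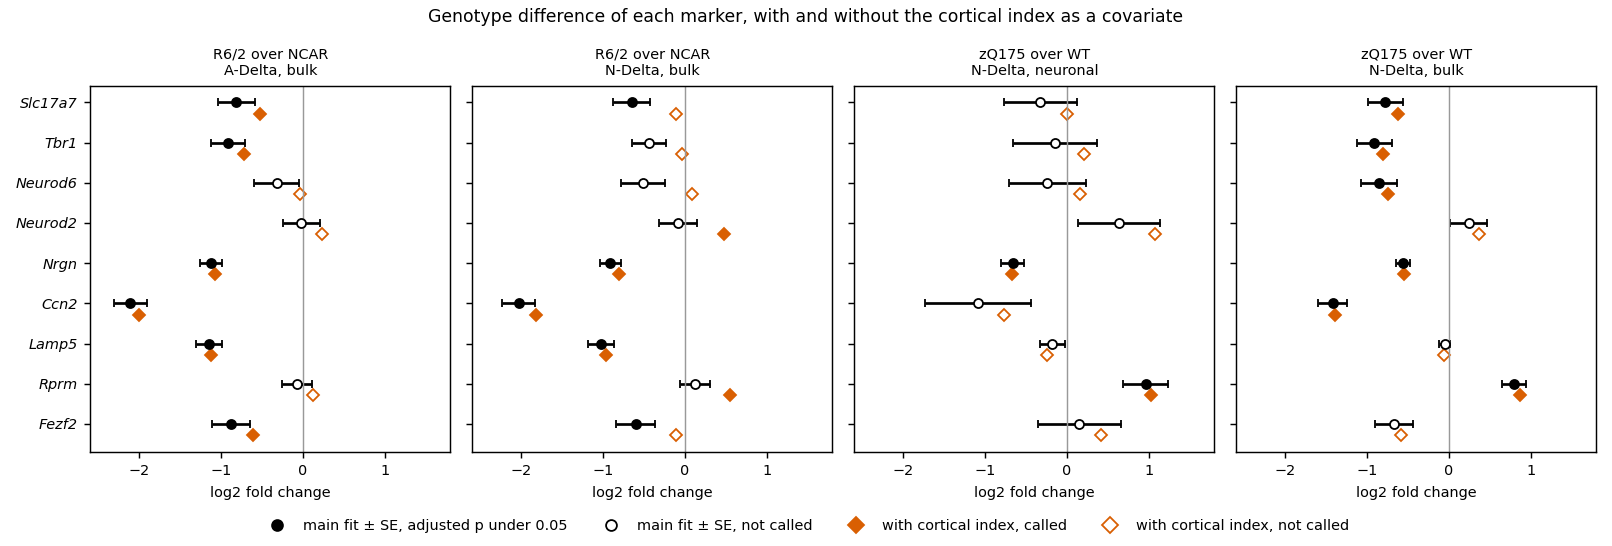
Log2 fold change of each marker (horizontal axis) in 4 genotype comparisons with the control virus; circles are the fit with its SE and diamonds the same fit with the cortical index as a covariate, filled where the adjusted p was under 0.05. Ccn2 and Nrgn lie left of 0 in all 4 panels, and Rprm lies right of 0 in both zQ175 panels.

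A cortical index was set beside each result, as the mean log2 CPM of Emx1, Slc30a3, Kcnv1 and Neurod1, which are cortical excitatory genes outside the 9 markers. In the set of neuronal libraries Neurod1 was below the filter on low counts, and the index there was the mean of the other 3 genes, so its level is not set against that of the bulk sets. It ran over 3.19 to 4.00 in R6/2 A-Delta and 3.32 to 4.16 in NCAR A-Delta libraries, and over 2.46 to 3.52 in R6/2 N-Delta and 3.17 to 4.01 in NCAR N-Delta libraries. In zQ175 N-Delta bulk it was 2.04 to 2.35, against 1.83 to 2.75 in WT N-Delta bulk libraries. Index genes were themselves called. Of the 4, 2 were lower in R6/2 A-Delta, 3 in R6/2 N-Delta and 1 in zQ175 N-Delta bulk libraries. None was called higher, but the genes did not all move alike. Their log2 fold changes ran over -0.98 to 0.76 in R6/2 A-Delta, -1.075 to -0.15 in R6/2 N-Delta and -0.41 to 0.91 in zQ175 N-Delta bulk. Over all genes 15.3%, 28.4% and 9.57% were called lower in these comparisons. Whether the index genes changed within cells or with the amount of cortical RNA was not tested. A fit with the index therefore removes any change they share with a marker as well as any difference in cortical RNA. With the index as a covariate, Ccn2 fell by about as much as without it, at -2.0 (adjusted p = 1.1e-08) in R6/2 A-Delta, -1.82 (adjusted p = 3.18e-07) in R6/2 N-Delta and -1.39 (adjusted p = 1.76e-05) in zQ175 N-Delta bulk libraries. Nrgn likewise stayed at -1.07 (adjusted p = 2.9e-07), -0.80 (adjusted p = 7.13e-05) and -0.55 (adjusted p = 0.000279), and Lamp5 at -1.12 (adjusted p = 7.14e-06) and -0.97 (adjusted p = 0.000147) in the R6/2 comparisons.

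Slc17a7 shrank with the index to -0.53 (adjusted p = 0.00103) in R6/2 A-Delta and -0.63 (adjusted p = 0.00513) in zQ175 N-Delta bulk libraries, and to -0.12 (adjusted p = 0.49) in R6/2 N-Delta libraries, where the call was lost. Fezf2 also lost its R6/2 N-Delta call, at -0.11 (adjusted p = 0.646). Tbr1 kept its calls at -0.72 (adjusted p = 0.000782) in R6/2 A-Delta and -0.81 (adjusted p = 0.00264) in zQ175 N-Delta bulk. Neurod2, which passed in none of the 4 genotype comparisons when all groups of a set were fitted without the index, was called higher with it in R6/2 N-Delta at 0.48 (adjusted p = 0.00469). It stood at 0.24 (adjusted p = 0.134) in R6/2 A-Delta, 0.36 (adjusted p = 0.185) in zQ175 bulk and 1.08 (adjusted p = 0.0502) in zQ175 neuronal libraries, which did not pass. Rprm was called higher with the index in R6/2 N-Delta at 0.55 (adjusted p = 0.00207), zQ175 bulk at 0.87 (adjusted p = 3.88e-05) and zQ175 neuronal libraries at 1.03 (adjusted p = 0.0285).

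The 17 other cortical excitatory genes gave the setting for these values. In R6/2 A-Delta over NCAR A-Delta libraries 9 of 17 fell and none rose, where 15.3% of all genes were called lower, with a median log2 fold change of -0.67. Cplx3, a complexin of layer 6b and retinal ribbon synapses, changed by -1.94 ± 0.26 (adjusted p = 2.18e-06), the potassium channel subunit gene Kcnv1 by -0.67 ± 0.10 (adjusted p = 7.89e-06) and Hs3st4 by -0.77 ± 0.14 (adjusted p = 0.000113). Kcnv1 is also a gene of the cortical index. In R6/2 N-Delta over NCAR N-Delta 6 of 17 fell and 1 rose, with a median of -0.23. There 28.4% of all genes were called lower and 55.5% in either direction, so the count of the list was near the background. Cplx3 was at -1.77 ± 0.26 (adjusted p = 4.08e-06) and Rasgrf2 at -1.11 ± 0.17 (adjusted p = 8.88e-06). In zQ175 over WT bulk libraries 6 fell and 1 rose, where 9.57% of all genes were called lower, with Pou3f1 at -0.82 ± 0.11 (adjusted p = 3.38e-05), Hs3st4 at -0.48 ± 0.07 (adjusted p = 8.2e-05) and Cplx3 at -1.62 ± 0.26 (adjusted p = 0.0002). In neuronal libraries 1 of 16 tested fell, Pou3f1, at -1.14 ± 0.20 (adjusted p = 0.00125). The 3 claustrum genes included Ntng2, which changed by -1.31 ± 0.22 (adjusted p = 4.38e-05) in R6/2 A-Delta and -0.95 ± 0.18 (adjusted p = 0.000832) in zQ175 bulk libraries. Of the 12 striatal projection neuron genes, 11 fell in R6/2 A-Delta, 7 in R6/2 N-Delta, 11 in zQ175 bulk and 11 in zQ175 neuronal libraries. In the neuronal libraries 6.03% of all genes were called lower.

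Glial genes moved with genotype in the R6/2 series too. Of the 4 oligodendrocyte genes 3 fell in R6/2 A-Delta and 3 in R6/2 N-Delta, with medians of -0.71 and -0.60, and of the 4 astrocyte genes 2 fell in each. Over all genes 15.3% were called lower in R6/2 A-Delta and 28.4% in R6/2 N-Delta. In either direction the shares were 28.9% and 55.5%, so the astrocyte count with N-Delta was near the background. The oligodendrocyte genes summed to 3900.0 to 5462 CPM in R6/2 A-Delta, against 7026 to 8692 CPM in NCAR A-Delta libraries. With N-Delta they summed to 5199 to 6382 CPM in R6/2, against 8309 to 10680.0 CPM in NCAR libraries, and neither pair of groups overlapped. The astrocyte genes summed to 873 to 923 CPM in R6/2 A-Delta, against 1065 to 1129 CPM in NCAR A-Delta, and to 910.4 to 1020.0 CPM in R6/2 N-Delta, against 1293 to 1383 CPM in NCAR N-Delta libraries. In zQ175 over WT bulk libraries none of the 4 oligodendrocyte and 4 astrocyte genes was called, where 16% of all genes were. No glial gene of these lists was at 0 throughout a group, and their part in the marker differences was not tested.

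The A-ZFP virus was compared with A-Delta to ask what the astrocytic repressor did to these genes. No marker was called in either genotype by edgeR. In R6/2 0.0322% of genes were called (0.0184% higher and 0.0138% lower), 7 genes in all, and 835 had an unadjusted p under 0.05. In NCAR 0.0184% were called, 4 genes, with 544 at an unadjusted p under 0.05. In R6/2 the log2 fold changes of the markers lay between 0.05 (SE 0.25) for Neurod2 and 0.30 (SE 0.25) for Fezf2. Ccn2, for example, had 12.5, 11.5 and 10.3 CPM in R6/2 A-ZFP, against 13.2, 10.2, 9.98 and 9.34 CPM in R6/2 A-Delta libraries, which overlapped. In NCAR they lay between -0.10 (SE 0.19) for Rprm and 0.08 (SE 0.23) for Neurod2.

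In R6/2 striatum, 3 of the 9 markers rose with N-ZFP relative to N-Delta and none fell, where 13.1% of genes were called, 8.2% higher and 4.86% lower. Ccn2 had 24.9, 20.6, 32.4 and 16.6 CPM in R6/2 N-ZFP, against 12.7, 12.2, 15.2 and 11.7 CPM in R6/2 N-Delta libraries. All N-ZFP libraries were above all N-Delta libraries. The log2 fold change was 0.87 ± 0.20 (adjusted p = 0.00453), which is 1.82-fold higher, and both R6/2 groups stayed below the 44.5, 49.1, 57.0 and 61.3 CPM of NCAR N-Delta libraries. Nrgn had 150.3, 189.6, 223 and 199.8 CPM in R6/2 N-ZFP, against 142, 129, 172 and 135 CPM in R6/2 N-Delta libraries, with overlap, at 0.40 ± 0.13 (adjusted p = 0.0387). Slc17a7 had 293, 312, 355 and 171 CPM in R6/2 N-ZFP, against 179, 119, 255 and 163 CPM in R6/2 N-Delta libraries, also with overlap, at 0.66 ± 0.22 (adjusted p = 0.0498). The other 6 had positive values that did not pass, from 0.25 ± 0.19 for Rprm to 0.47 ± 0.21 for Tbr1.

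These calls differed in how they held. Ccn2 passed in every alternative and when any library was left out, with log2 fold changes of 0.67 to 1.00 over the left-out libraries, and it was 0.67 (adjusted p = 0.0443) with the cortical index. Nrgn was lost without R6/2 N-Delta replicate 1, 2 or 4 or R6/2 N-ZFP replicate 2 or 3, and went to 0.31 (adjusted p = 0.182) with the index. Slc17a7 was lost without R6/2 N-Delta replicate 1, 2 or 4 or R6/2 N-ZFP replicate 1, 2 or 3, and went to 0.18 (adjusted p = 0.45) with the index. Tbr1 was gained without R6/2 N-ZFP replicate 4 and Lamp5 without R6/2 N-ZFP replicate 1. The cortical index was 2.99 to 3.92 in R6/2 N-ZFP and 2.46 to 3.52 in R6/2 N-Delta libraries, and 2 of its 4 genes were called higher. Of the 17 other cortical genes 5 rose and none fell, with Cplx3 at 1.34 ± 0.26 (adjusted p = 0.00105) and Rasgrf2 at 0.87 ± 0.17 (adjusted p = 0.00144). Of the 12 striatal projection neuron genes 6 rose, with Penk at 0.78 ± 0.21 (adjusted p = 0.0146), and of the 9 interneuron genes 6 rose, with Pthlh at 1.02 ± 0.17 (adjusted p = 0.000264). Over all genes 8.2% were called higher in this comparison. The hypothalamic genes summed to 3.14 to 13.5 CPM in R6/2 N-ZFP and 1.03 to 2.17 CPM in R6/2 N-Delta libraries, and their part in the result was not tested.

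In NCAR striatum 1 marker fell with N-ZFP, where 22% of genes were called and 10.2% were called lower. Ccn2 had 25.2, 39.6, 30.9 and 43.1 CPM in NCAR N-ZFP, against 44.5, 49.1, 57.0 and 61.3 CPM in NCAR N-Delta libraries, without overlap, at -0.61 ± 0.19 (adjusted p = 0.0307). It kept its call without NCAR N-Delta replicate 2 or NCAR N-ZFP replicate 2 and lost it without any other of the 8 libraries, with adjusted p up to 0.118. It went to -0.49 (adjusted p = 0.108) with the cortical index. Nrgn, Slc17a7, Lamp5 and Neurod6 were at 0.18 ± 0.13, -0.01 ± 0.22, -0.17 ± 0.16 and -0.51 ± 0.27. The N-ZFP effect in R6/2 minus that in NCAR was called for 2 markers, where 32.3% of genes were called. It was 1.48 ± 0.28 (adjusted p = 0.00133) for Ccn2, which passed in all fits but that with the length index, at 1.24 (adjusted p = 0.0578). It was 0.58 ± 0.22 (adjusted p = 0.0469) for Lamp5, which did not pass with the cortical index, at 0.50 (adjusted p = 0.218), and lost its call when any of 11 of the 16 libraries was left out. Slc17a7 and Neurod6 were gained in this difference without R6/2 N-Delta replicate 3 or R6/2 N-ZFP replicate 4, and Neurod6 also without NCAR N-Delta replicate 2. Lamp5 had 43.8, 54.0, 51.8 and 80.3 CPM in R6/2 N-ZFP, against 40.7, 38.0, 49.2 and 45.1 CPM in R6/2 N-Delta, and 79.7, 71.4, 86.7 and 77.0 CPM in NCAR N-ZFP, against 116, 70.4, 83.9 and 83.7 CPM in NCAR N-Delta libraries.

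The N-Delta virus was also set against the A-Delta virus within each genotype. In R6/2 no gene was called by edgeR, 2154 genes had an unadjusted p under 0.05, and DESeq2 called 39. In NCAR, where 37% of genes were called, 19% lower and 18% higher, Slc17a7 and Tbr1 fell and no marker rose. Slc17a7 had 234, 229, 355 and 309 CPM in NCAR N-Delta, against 599.7, 444, 349 and 379 CPM in NCAR A-Delta libraries, which overlapped, at -0.65 ± 0.22 (adjusted p = 0.0238). Tbr1 was at -0.64 ± 0.20 (adjusted p = 0.0168) without overlap. Both lost their calls without NCAR A-Delta replicate 1 or NCAR N-Delta replicate 1, Slc17a7 also without NCAR N-Delta replicate 2, and both with the length index, at -0.89 (adjusted p = 0.148) and -0.67 (adjusted p = 0.222). Neurod2 was gained without NCAR N-Delta replicate 3, at -0.66 (adjusted p = 0.0394). The length index was -0.42 to -0.23 in NCAR N-Delta and -0.17 to 0.14 in NCAR A-Delta libraries. The hypothalamic genes summed to 5.47 to 63.7 CPM in NCAR N-Delta and 4.70 to 7.15 CPM in NCAR A-Delta libraries.

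In zQ175 series bulk libraries N-ZFP over N-Delta called no marker and no other gene by edgeR. Unadjusted p was under 0.05 for 922 genes in zQ175 and 1384 in WT, and DESeq2 called 0 in zQ175 and 22 in WT. The largest marker values in zQ175 were 0.41 ± 0.19 for Ccn2 and 0.40 ± 0.22 for Tbr1. Ccn2 had 13.3, 14.4, 12.7 and 15.1 CPM in zQ175 N-ZFP, against 9.75, 12.3, 10.3 and 9.56 CPM in zQ175 N-Delta libraries, and no library overlapped. In WT the values were -0.76 ± 0.24 for Neurod6, -0.69 ± 0.24 for Slc17a7 and -0.63 ± 0.18 for Ccn2. Slc17a7 had 134, 138 and 69.3 CPM in WT N-ZFP, against 243, 178, 211 and 100.0 CPM in WT N-Delta libraries, and the cortical index was 1.09 to 2.09 in WT N-ZFP, against 1.83 to 2.75 in WT N-Delta. The summed CPM of the index genes overlapped, at 75.1 to 89.1 in WT N-ZFP and 78.4 to 93.2 in WT N-Delta. With the index in the fit, Slc17a7 stood at -0.08 (adjusted p = 1).

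In neuronal libraries the N-ZFP groups held the lowest of the 16 means of Slc17a7, Tbr1, Neurod6, Neurod2, Rprm and Fezf2, and none of the 9 markers passed the test. In zQ175, edgeR called 0.329% of genes, 52 in all. An unadjusted p under 0.05 was found for 4811 of the 15815 genes, and DESeq2 called 1865. Slc17a7 had 48.7, 62.1, 68.8 and 26.9 CPM in zQ175 N-ZFP neuronal, against 129, 164, 98.9 and 98.0 CPM in zQ175 N-Delta neuronal libraries. Although no library overlapped, the log2 fold change of -1.25 ± 0.46 (adjusted p = 0.102) did not pass. Rprm had 10.7, 16.1, 8.23 and 8.64 CPM in zQ175 N-ZFP, against 29.7, 24.6, 24.5 and 26.2 CPM in zQ175 N-Delta neuronal libraries, at -1.24 ± 0.29 (adjusted p = 0.0771) without overlap. Rprm passed in DESeq2, at -1.27 (adjusted p = 0.00539), and with the cortical index, at -1.03 (adjusted p = 0.0483), and it passed without zQ175 N-ZFP neuronal replicate 2 or 4. Nrgn had 218, 252, 142 and 199 CPM in zQ175 N-ZFP, against 306, 273, 251 and 283 CPM in zQ175 N-Delta neuronal libraries, at -0.45 ± 0.14 (adjusted p = 0.0821), and passed in DESeq2 at -0.46 (adjusted p = 0.0319) and without zQ175 N-ZFP neuronal replicate 2.

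In WT neuronal libraries 0.126% of genes were called, 0.0316% higher and 0.0948% lower, none of them a marker. Unadjusted p was under 0.05 for 958 genes, and DESeq2 called 67. Slc17a7 had 35.2, 154, 42.9 and 19.8 CPM in WT N-ZFP neuronal, against 176, 167, 159 and 113 CPM in WT N-Delta neuronal libraries. Replicate 2 of WT N-ZFP lay within the N-Delta range and the other 3 far below it, and the log2 fold change was -1.29 ± 0.46 (adjusted p = 0.572). Tbr1 had 4.77, 25.1, 5.20 and 2.56 CPM in WT N-ZFP, against 27.4, 17.2, 14.9 and 15.8 CPM in WT N-Delta neuronal libraries, with the same library high. Without that library 3 markers were called: Slc17a7 at -2.24 (adjusted p = 0.00501), Tbr1 at -2.18 (adjusted p = 0.0312) and Rprm at -1.54 (adjusted p = 0.0289). Nrgn had 286, 309.9, 247 and 286 CPM in WT N-ZFP, against 521, 414, 397 and 433 CPM in WT N-Delta neuronal libraries. It did not overlap and was -0.64 ± 0.14 (adjusted p = 0.104) in edgeR, -0.65 (adjusted p = 0.00549) in DESeq2 and -0.64 (adjusted p = 0.0214) in a fit of these 2 groups alone.

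The cortical index moved with the virus in these libraries. It was 1.89 to 2.68 in zQ175 N-ZFP and 2.54 to 3.24 in zQ175 N-Delta neuronal libraries, and 1.18 to 2.77 in WT N-ZFP and 2.96 to 3.23 in WT N-Delta neuronal libraries. With the index in the fit, Slc17a7 was at -0.31 (adjusted p = 0.539) in zQ175 and -0.14 (adjusted p = 0.864) in WT, and Neurod6 at 0.00 (adjusted p = 0.995) and -0.03 (adjusted p = 0.978). Choroid plexus genes summed to 51.4 to 339 CPM in zQ175 N-ZFP and 37.6 to 53.3 CPM in zQ175 N-Delta neuronal libraries, and microglial genes to 5.39 to 52.8 and 4.85 to 9.35 CPM. In WT the choroid plexus sums were 42.2 to 202 CPM with N-ZFP and 31.3 to 62.1 CPM with N-Delta. None of these genes was at 0 throughout a group, and their part in the marker values was not tested. The N-ZFP effect in neuronal minus bulk libraries, a comparison added after the values were seen, called no marker in zQ175, where 0.0621% of genes were called, or in WT, where 0.0282% were. Unadjusted p was under 0.05 for 3215 genes in zQ175 and 579 in WT, and DESeq2 called 105 and 7. Slc17a7 was at -1.51 ± 0.54 (adjusted p = 0.197) in zQ175 and -0.62 ± 0.55 (adjusted p = 0.999) in WT. The fit took neuronal and bulk libraries as independent. With a replicate block that joins libraries of the same genotype, virus and number, the zQ175 difference passed for Slc17a7 at -1.54 (adjusted p = 0.0207) and Neurod2 at -1.59 (adjusted p = 0.0237), and no marker passed in WT. Without zQ175 N-ZFP neuronal replicate 2, the zQ175 difference passed for Nrgn at -0.63 (adjusted p = 0.0271) and Rprm at -1.37 (adjusted p = 0.0168).

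**Figure D3:**
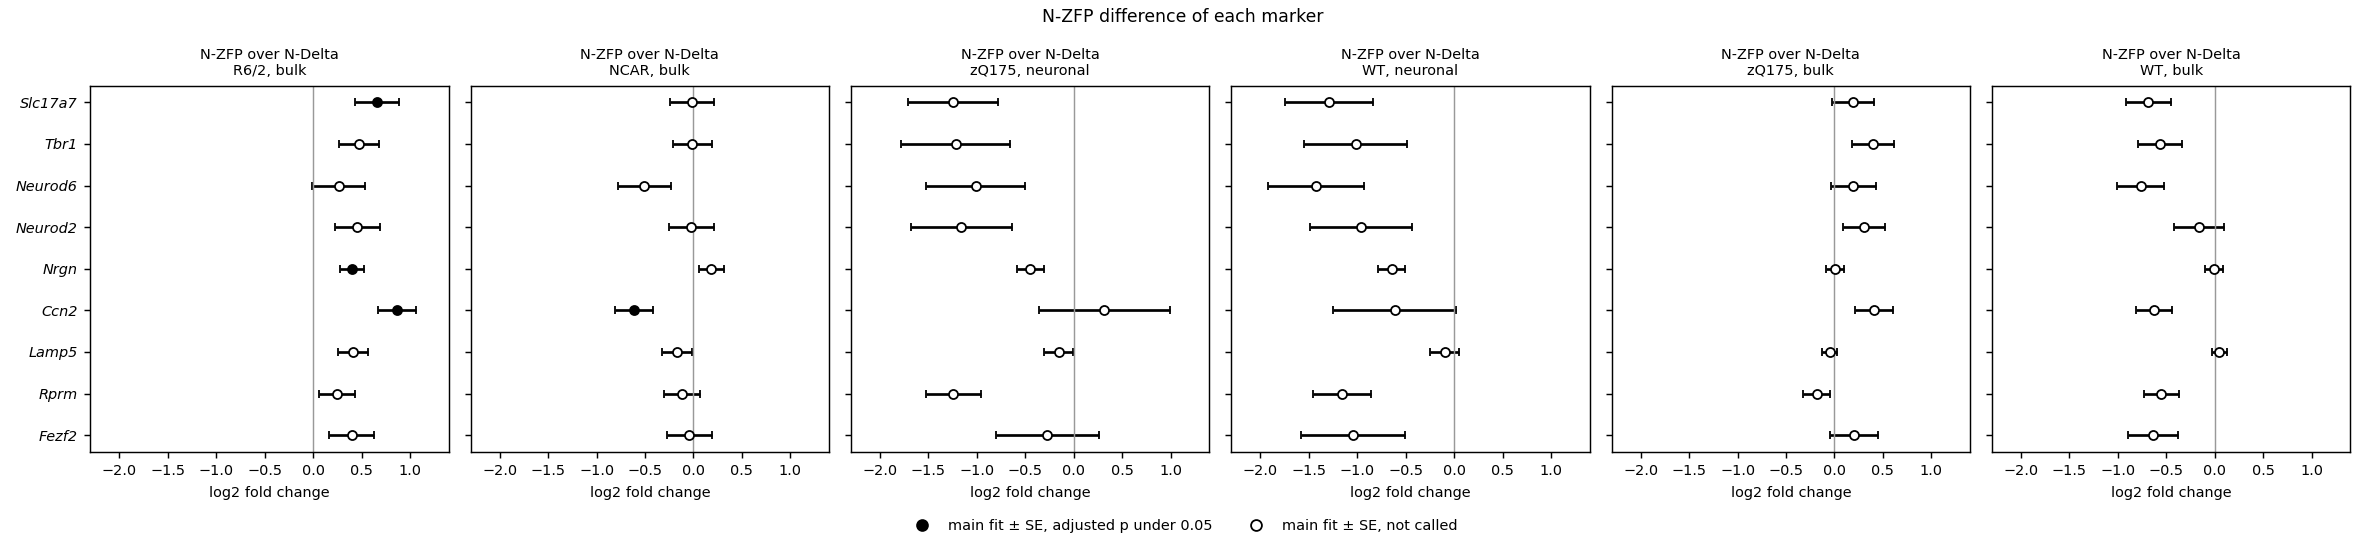
Log2 fold change with its SE (horizontal axis) of each marker for N-ZFP over N-Delta in 6 settings; filled circles had an adjusted p under 0.05 and open circles did not. Ccn2, Nrgn and Slc17a7 are filled right of 0 in R6/2 bulk and Ccn2 is filled left of 0 in NCAR bulk, and in both neuronal panels most open circles lie left of 0 with wide errors.

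Neuronal libraries were compared with bulk libraries of the same virus and genotype to see which markers were carried by the separated neuronal RNA. In WT N-Delta striatum 2 markers were higher in neuronal libraries and 1 was lower, where 55.9% of genes were called, 26.3% higher and 29.6% lower. Nrgn had 521, 414, 397 and 433 CPM in neuronal, against 341, 252, 281 and 234 CPM in bulk libraries, and was at 0.73 ± 0.13 (adjusted p = 2.81e-05). Lamp5 had 99.0, 98.6, 102 and 96.1 CPM in neuronal, against 55.0, 59.4, 55.8 and 62.9 CPM in bulk libraries, and was at 0.82 ± 0.13 (adjusted p = 7.74e-06). Neither overlapped. Fezf2 had 2.91, 1.71, 1.60 and 1.26 CPM in neuronal, against 4.14, 4.79, 5.02 and 2.47 CPM in bulk libraries, at -1.06 ± 0.37 (adjusted p = 0.0169), and lost its call without bulk replicate 3 or neuronal replicate 4. Slc17a7 at -0.19 ± 0.37 (adjusted p = 0.674), Neurod2 at -0.29 ± 0.39 (adjusted p = 0.544) and Neurod6 at -0.79 ± 0.36 (adjusted p = 0.0592) did not pass, and Neurod6 passed without bulk replicate 4. With the replicate block Neurod6 passed too, at -0.83 (adjusted p = 0.00953).

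In zQ175 N-Delta striatum 3 markers were higher in neuronal than in bulk libraries and none was lower, where 50% of genes were called and 25.2% were higher. Nrgn was at 0.65 ± 0.13 (adjusted p = 0.000149) and Lamp5 at 0.72 ± 0.13 (adjusted p = 5.08e-05). Rprm was at 0.57 ± 0.23 (adjusted p = 0.0392) and lost its call without any 1 of the 8 libraries and in DESeq2. Slc17a7, Tbr1 and Neurod2 were at 0.28 ± 0.37, 0.42 ± 0.41 and 0.12 ± 0.38. In the same comparison, the 12 striatal projection neuron genes were all called higher in zQ175 and 11 of 12 in WT neuronal libraries. Of the 9 interneuron genes 8 were higher in zQ175 and 7 in WT. Over all genes 24.8% were lower in zQ175, and 26.3% were higher and 29.6% lower in WT. Of the 8 vascular and fibroblast genes 6 were lower in zQ175 and 7 in WT, and the 4 microglial genes were lower in both, with medians of -5.18 in zQ175 and -5.38 in WT. Of the 17 other cortical genes 6 were higher and 2 lower in zQ175, and 5 higher and 1 lower in WT, with Rorb at -1.23 ± 0.21 (adjusted p = 1.61e-05) in zQ175 and -1.38 ± 0.20 (adjusted p = 2.36e-06) in WT and Nxph4 at 1.22 ± 0.24 (adjusted p = 0.000155) and 1.03 ± 0.26 (adjusted p = 0.00136).

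The last comparison asked which markers varied together among libraries of the same group. For each library the deviation of a gene's log2 CPM from its group mean was taken, and 24 relations to Slc17a7 were computed in 3 sets, with permutation of libraries within groups and Benjamini-Hochberg adjustment over the 24. In the 31 R6/2 series bulk libraries Neurod2 had a Pearson's r of 0.90 (adjusted permutation p = 6e-05) and Spearman's rho of 0.89 (adjusted permutation p = 6e-05). Rprm had 0.87 (adjusted permutation p = 6e-05) and Spearman's rho of 0.87 (adjusted permutation p = 6e-05), and Tbr1 had 0.86 (adjusted permutation p = 6e-05) and Spearman's rho of 0.84 (adjusted permutation p = 6e-05). Pearson's r was 0.803 for Neurod6, 0.795 for Fezf2 and 0.657 for Ccn2, all of which passed. Nrgn with 0.25 (adjusted permutation p = 0.31) and Spearman's rho of 0.26 (adjusted permutation p = 0.247) and Lamp5 with -0.10 (adjusted permutation p = 0.693) and Spearman's rho of 0.00 (adjusted permutation p = 0.983) did not pass. Among N virus and A virus libraries taken separately, r was 0.91 and 0.87 for Neurod2, 0.79 and 0.47 for Ccn2, and -0.27 and 0.21 for Lamp5.

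In the 15 zQ175 series bulk libraries Neurod2 again had the highest value, at 0.94 (adjusted permutation p = 0.0008) and Spearman's rho of 0.90 (adjusted permutation p = 0.00101) and Tbr1 at 0.916 in Pearson's r. Rprm, Neurod6 and Fezf2 also passed, at 0.886, 0.834 and 0.73, Fezf2 by Pearson's r alone. Nrgn at 0.658 and Ccn2 at 0.602 did not, and Lamp5 was at -0.33 (adjusted permutation p = 0.369) and Spearman's rho of -0.45 (adjusted permutation p = 0.187). In the 16 neuronal libraries r was 0.964 for Tbr1, 0.958 for Neurod6 and 0.929 for Neurod2, whereas Rprm was at 0.48 (adjusted permutation p = 0.369) and Spearman's rho of 0.30 (adjusted permutation p = 0.381) and Nrgn at 0.09 (adjusted permutation p = 0.711) and Spearman's rho of 0.10 (adjusted permutation p = 0.778). Ccn2 at 0.688 and Fezf2 at 0.578 passed by Pearson's r and missed by Spearman's rho. Without the 2 libraries farthest from the median of Slc17a7, which left 14, their r dropped to 0.44 and 0.39 and no longer passed. Their Spearman's rho was then 0.43 and 0.51, of the same sign. The 2 libraries were picked by the level of Slc17a7, not by its deviation from the group mean. WT N-ZFP neuronal replicate 2, at 154 CPM beside a group median of 39.1 CPM, therefore stayed in. How far the relations depend on that library was not tested. In zQ175 series bulk libraries r for Ccn2 was 0.026 without the 2 farthest libraries. In the R6/2 series Neurod2, Tbr1 and Rprm stayed at 0.88, 0.81 and 0.91.

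**Figure D4:**
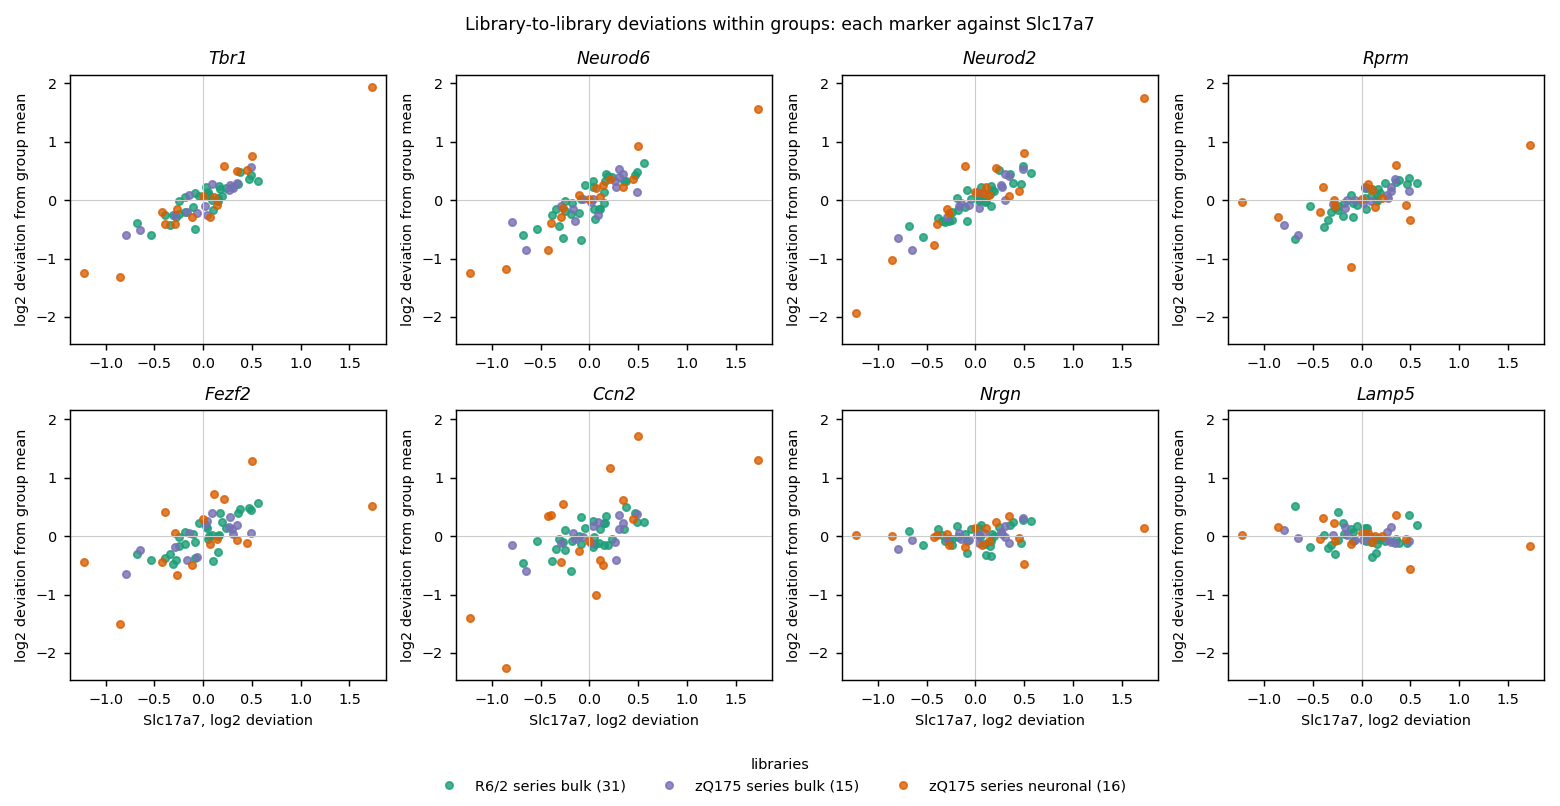
Deviation of each marker's log2 CPM from its group mean (vertical axes) against that of Slc17a7 (horizontal axes), 1 point for each library, coloured by set. Tbr1, Neurod6 and Neurod2 follow the diagonal in all 3 sets, while Nrgn and Lamp5 vary little over the range of Slc17a7.

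The same deviations were used to rank other genes by likeness over the 31 R6/2 series bulk libraries, among 13451 genes that averaged 1 CPM or more. The 5 genes most like Slc17a7 were Olfm1, Sv2b, Mpped1, Fhl2 and Fam81a, with r between 0.899 and 0.943. Sv2b encodes a synaptic vesicle glycoprotein, and Olfm1 a secreted olfactomedin of neurons. The 5 most like Nrgn were Exph5, Kctd3, Ephb3, Dmp1 and Cabp1, with r between 0.734 and 0.773, and the 5 most like Ccn2 were Lrfn2, Rai14, Nxph3, Pcsk5 and Nr4a2, with r between 0.704 and 0.797. Nxph3 encodes a neurexophilin, and Nr4a2 a nuclear receptor of claustrum and deep cortical layers. These correlations describe the libraries and carry no test.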

How the data were processed

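Gene counts of 62 striatal libraries were deposited by the authors as 1 table of raw counts over 48795 genes. Reads were aligned with STAR and counted with HTSeq on mm10, per the submitters' processing notes, and versions, annotation and strand setting are not given in the sources used here. Per the labels' protocols, libraries were made from total RNA with a stranded kit. Of the gene IDs, 48349 matched a symbol in GENCODE M21.

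Libraries were grouped by their labels. Each of 4 fits (31 libraries of the R6/2 series, 15 bulk and 16 neuronal libraries of the zQ175 series, and these 31 zQ175 series libraries together) used edgeR 4.0.16 in R 4.3.3 with limma 3.58.1: TMM scaling, filterByExpr by group, a term for each group and the quasi-likelihood test, with Benjamini-Hochberg adjustment over all genes tested in a comparison and a threshold of 0.05. The fits tested 21752, 17114, 15815 and 17702 genes. CPM values use the TMM-scaled library size of the library's own set. Errors of log2 fold changes are standard errors, and intervals from counts cover counting error only. The scripts were tested on simulated data.

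Alternatives were RLE or library-total scaling, no filter, a replicate block, a cortical or length index as covariate, the compared groups alone, DESeq2 1.42.0 and each library left out. Relations between genes used log2 CPM with a prior count of 2 and 100000 permutations within groups, whose smallest p is 1e-05. Of the group pairs compared, in none did every pair of libraries with the same replicate number deviate together (correlation over 0.1), so the numbers were not taken to pair libraries. For WT N-Delta neuronal and bulk libraries the mean correlation was 0.18 for the same number (0.037 to 0.263) and -0.06 for other numbers. For zQ175 N-Delta the means were 0.05 and -0.02. Neuronal and bulk N-ZFP libraries were not compared in this way. No 2 libraries held identical values.

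The 9 genes, the lists and the index were chosen with earlier results of these data known. Named were the 9 genes, the 5 genes most like Slc17a7, Nrgn or Ccn2, and up to 3 genes of a list with the smallest p. A gene of the cortical list and index is not reported here, and both were computed without it after the data were seen. The repressor effects in neuronal minus bulk libraries were added after the data were seen.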

Additional observations from a re-analysis of the deposited data

Results flagged for a closer look

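Of 126 groups of 4 libraries, 1 for each gene and group, 4 held a library whose gap to its nearest neighbour, as a share of the group's range, passed Dixon's critical value of 0.829. Chance flags about 1 in 20 groups, a larger share than 4 of 126. Neurod6 in NCAR A-ZFP bulk replicate 2 had 48.0 CPM, apart from the other libraries of its group. Nrgn in NCAR N-Delta bulk replicate 3 stood at 310.2 CPM. Tbr1 in WT N-ZFP neuronal replicate 2 had 25.1 CPM, against 2.56 to 5.20 CPM in the other 3 libraries, and this is the library in which Slc17a7 was also high. Lamp5 in zQ175 N-Delta neuronal replicate 4 had 102 CPM.

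The N-ZFP effect differed between R6/2 and NCAR bulk libraries for Ccn2, by a log2 difference of 1.48 ± 0.28 (adjusted p = 0.00133) in edgeR's quasi-likelihood test, with all 4 R6/2 N-ZFP libraries above the R6/2 N-Delta range and all 4 NCAR N-ZFP libraries below the NCAR N-Delta range. For Lamp5 the difference was 0.58 ± 0.22 (adjusted p = 0.0469), and within each genotype the N-ZFP and N-Delta libraries overlapped. Lamp5 was called in 5 of 16 fits with 1 library left out. Over all genes 32.3% were called in this difference, and neither marker passed with the length index. For Htt, read as the mouse gene, the same difference was -0.68 ± 0.21 (adjusted p = 0.0161). The R6/2 effect with N-Delta minus that with A-Delta was 0.76 ± 0.21 (adjusted p = 0.0223). Htt had 120 to 178 CPM in NCAR N-Delta and 210 to 277 CPM in NCAR A-Delta libraries. With the length index as a covariate, genes called in the latter comparison went from 4981 to 0, so Htt did not pass there. In the former they went from 7028 to 242, and Htt was not read in that fit.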

How the results depend on the processing

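Counts below are markers called of 9. With 1 library left out, the count ran over 6 to 6 for R6/2 over NCAR with A-Delta, 3 to 7 with N-Delta and 0 to 0 for their difference; 0 to 0 for A-ZFP in R6/2 and in NCAR; 1 to 4 for N-ZFP in R6/2, 0 to 1 in NCAR and 1 to 4 for their difference; 0 to 0 for N-Delta over A-Delta in R6/2 and 0 to 3 in NCAR. In the zQ175 series it ran over 5 to 7 for zQ175 over WT in bulk, 1 to 1 in neuronal libraries and 0 to 0 for their difference; 0 to 0 for N-ZFP in zQ175 and in WT bulk, 0 to 2 in zQ175 neuronal and 0 to 3 in WT neuronal libraries; and 2 to 4 in WT and 2 to 2 in zQ175 for neuronal over bulk.

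With the length index the count was 3 for R6/2 over NCAR with N-Delta, 0 for N-ZFP in NCAR, 0 for N-Delta over A-Delta in NCAR, 0 for the N-ZFP difference R6/2 minus NCAR and 1 for N-ZFP in WT neuronal libraries. With the cortical index it was 1 for N-ZFP in R6/2, 0 in NCAR, 1 for their difference, 1 in zQ175 neuronal libraries and 1 for the difference of the R6/2 effects. Neurod2 in R6/2 over NCAR with N-Delta turned from -0.09, which had not passed, to 0.48 under the cortical index. The compared groups alone gave 1 for N-ZFP in R6/2, 0 in NCAR, 1 for their difference and 1 in WT neuronal libraries. Without a filter the count was 1 for that difference, 4 for N-ZFP in WT bulk and 1 in zQ175 neuronal libraries, and RLE size factors gave 1 for the difference. DESeq2 gave 2 for N-ZFP in zQ175 neuronal and 2 in WT neuronal libraries. Beyond what each covariate holds, the causes were not tested. Relations to Slc17a7 that passed numbered 16 of 24, 14 without the 2 farthest libraries and 16 with a prior count of 0.5.

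The replicate numbers were not shown to pair libraries. With the replicate block, 1 marker was called for the N-ZFP difference R6/2 minus NCAR, 3 for N-ZFP in zQ175 neuronal libraries, and 1 in WT neuronal libraries; in the added difference of N-ZFP effects in zQ175, 2 were called.

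Calls over all genes moved too. N-ZFP in NCAR called 4776 genes (29 to 7159 over the alternatives and left-out libraries); N-ZFP in R6/2 called 2841 genes (712 to 6125); their difference called 7028 genes (242 to 9451). N-Delta over A-Delta in NCAR called 8057 genes (0 to 9173), the difference of the R6/2 effects 4981 genes (0 to 7006), and R6/2 over NCAR 12071 genes (4703 to 12381) with N-Delta. N-ZFP called 52 genes (7 to 4348) in zQ175 neuronal and 20 genes (1 to 119) in WT neuronal libraries, and zQ175 over WT called 1480 genes (888 to 3492) in neuronal libraries. N-ZFP in bulk called 0 genes (0 to 41) in zQ175 and 0 (0 to 310.0) in WT, A-ZFP in R6/2 called 7 (2 to 21), and N-Delta over A-Delta in R6/2 called 0 (0 to 39). Scaling by library totals moved the median of all genes by 0.15 for R6/2 over NCAR with A-Delta, 0.10 for zQ175 over WT in neuronal libraries and -0.10 for the difference of the R6/2 effects. Fezf2 had the lowest count of a marker, 4, in 1 neuronal library.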
